A study of Mus musculus with 9 samples.

Results

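Kupffer cells are the resident macrophages of the liver, and 10 genes tied to them were followed across all 9 arrays of a mouse liver and angiosarcoma study. The 10 were taken by name: Vsig4, Clec4f, Cd5l, Timd4, Marco, Adgre1, Csf1r, C1qa, C1qb and C1qc. Each of the 10 had 1 probe set annotated to that single gene symbol, out of 19938 genes measured in this way. The arrays form 3 groups of 3. AS cell line denotes hepatic angiosarcoma cells, a tumour of vessel-lining cells, grown out in long culture from endothelial cells isolated from livers of Notch1-deleted mice with a visible tumour. The labels call the 3 cultures biological replicates and do not say whether each is a line of its own. KO liver denotes samples labelled liver, snap-frozen, of MxCre Notch1 lox/lox mice, and WT liver that of Notch1 lox/lox mice without Cre. All mice were C57Bl/6, and both liver genotypes were injected with poly(I:C), which sets off an interferon response, at a dose of 300 µg on days 0, 3 and 6 from an age of 4 weeks. The extraction protocol names PHH, which is not explained, as the source of the RNA, so it is not settled if the liver RNA came from intact tissue or from isolated cells. The loxP-flanked exon codes for the Notch1 signal peptide. MxCre is switched on by the interferon response and acts in liver and in blood-forming cells, so it is not restricted to one liver cell type. Only the KO mice carried Cre, and the recombinase and the loss of Notch1 cannot be told apart in this design.

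Kupffer cells sit in the sinusoids, where they take up particles, worn red cells and dying cells from portal blood. They arise from embryonic precursors, depend on signalling through the CSF1 receptor, and in mice take on their identity under cues from the surrounding endothelial, stellate and hepatocyte niche, Notch ligands among them. C1q, assembled from the A, B and C chains, starts the classical complement cascade and is made mainly by macrophages, whereas most other soluble complement proteins come from hepatocytes.

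The genes for the 3 C1q chains follow each other directly on chromosome 4 in the order C1qb, C1qc, C1qa in the RefSeq gene table for GRCm38.p6. RefSeq promoter windows, from 250 bases before to 50 bases after the annotated start, were matched by symbol for 7 of the 10 genes. No entry was matched for C1qa, Adgre1 and Csf1r. A set of 4 windows is shown: those of the neighbouring C1qb and C1qc, that of Vsig4, a receptor that defines Kupffer cells, and that of Marco, whose pattern in the livers differed from that of the other 9. Capitals mark GAGGAA or its reverse complement TTCCTC, a core of sites bound by the macrophage factor PU.1, and TGGGAA or its reverse complement TTCCCA, a core of sites bound by the Notch effector RBP-J.
C1qb (GRCm38.p6, chr4:136886151-136886450, minus strand): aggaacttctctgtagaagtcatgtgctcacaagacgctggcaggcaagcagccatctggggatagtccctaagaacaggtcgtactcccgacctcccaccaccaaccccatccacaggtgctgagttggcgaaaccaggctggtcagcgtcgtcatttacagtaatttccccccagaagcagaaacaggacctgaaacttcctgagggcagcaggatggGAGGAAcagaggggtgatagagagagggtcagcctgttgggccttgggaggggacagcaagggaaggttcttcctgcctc
C1qc (GRCm38.p6, chr4:136892865-136893164, minus strand): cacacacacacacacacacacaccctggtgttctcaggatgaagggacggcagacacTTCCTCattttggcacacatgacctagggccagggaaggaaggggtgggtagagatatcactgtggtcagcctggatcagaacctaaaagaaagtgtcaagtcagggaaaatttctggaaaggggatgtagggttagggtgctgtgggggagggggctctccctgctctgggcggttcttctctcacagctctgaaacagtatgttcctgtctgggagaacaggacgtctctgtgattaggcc
Vsig4 (GRCm38.p6, chrX:96293389-96293688, minus strand): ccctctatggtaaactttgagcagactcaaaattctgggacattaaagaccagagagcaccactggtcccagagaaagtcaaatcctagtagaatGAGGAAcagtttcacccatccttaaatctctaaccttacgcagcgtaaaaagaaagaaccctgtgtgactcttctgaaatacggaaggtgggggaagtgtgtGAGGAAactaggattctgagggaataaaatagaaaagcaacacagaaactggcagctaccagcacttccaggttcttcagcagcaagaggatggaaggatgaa
Marco (GRCm38.p6, chr1:120504975-120505274, minus strand): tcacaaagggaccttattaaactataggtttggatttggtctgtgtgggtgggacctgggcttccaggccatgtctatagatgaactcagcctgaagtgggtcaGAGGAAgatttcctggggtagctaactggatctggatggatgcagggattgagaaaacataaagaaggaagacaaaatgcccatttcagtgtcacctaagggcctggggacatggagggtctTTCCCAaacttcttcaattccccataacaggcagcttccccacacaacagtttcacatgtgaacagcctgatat
The PU.1 core occurred in 5 of the 7 windows and in 28.3% of all 32851 promoter windows of this length, with 2 matches in Vsig4 and 1 each in Cd5l, Marco, C1qb and C1qc. The RBP-J core occurred in 2 of 7, Clec4f and Marco, and in 25.6% of all windows. Searched on both strands, the AP-1 motif TGANTCA occurred in 0 of 7 and in 7.81% of all windows. No match overlapped another in the windows shown. Such matches describe letters and not binding.

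Values are log2 expression per probe set, normalized together over the arrays, whose medians ran from 6.53 to 6.63. No detection calls accompany them, so a value near or below these medians may be background and a fold change against it understates the difference. Notch1, the targeted gene, stood at 7.84, 8.75 and 8.52 in KO livers and at 11.69, 11.02 and 11.71 in WT livers. The groups did not overlap, yet the log2 difference of -3.10 (SE 0.302, interval -3.85 to -2.35) did not pass limma's threshold either (adjusted p = 0.0995). The AS cell lines read 8.75, 8.61 and 7.83. All 11 endothelial markers measured fell in the lines against KO livers, where 10.1% of all genes were called lower. Their median difference was -6.51, so the lines lack the defining markers of the cell type named on their label. KO replicate 2 (0.315) and WT replicate 1 (0.274) had the lowest array weights of the 6 livers in limma. They also stood apart from the other livers of their genotype for the Kupffer genes, as described below. Precision is limited by there being 3 arrays in a group, and in bulk samples fewer cells of a type and less RNA per cell cannot be told apart.

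Between KO and WT livers 0 of the 10 genes passed the threshold of limma's test (Benjamini-Hochberg adjusted p under 0.05, with 19938 genes tested). That comparison sets samples labelled liver with Cre and deleted Notch1 against those without Cre. Across all genes 0% passed, and at an unadjusted p under 0.05 the counts were 0 of 10 genes and 22.5% of all genes. The values of KO and WT livers overlapped for all 10 genes, while they did not overlap for 30.3% of all genes. The median log2 difference of the 10 was 0.02, against -0.00 over all genes. Without Marco the other 9 differences lay between -0.19 and 0.09.

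Vsig4, also called CRIg, is the complement receptor with which Kupffer cells catch C3-coated particles. It stood at 12.57, 13.04 and 12.66 in KO livers and at 13.15, 12.63 and 12.51 in WT livers. The log2 difference was -0.01 (SE 0.211, 95% confidence interval -0.53 to 0.52, adjusted p = 0.988 in limma). Within each genotype 1 liver was highest, KO replicate 2 and WT replicate 1, and the groups covered nearly the same range.

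Clec4f is a C-type lectin that in mice marks Kupffer cells among macrophages. Its values were 11.67, 12.44 and 12.08 in KO livers and 12.60, 12.12 and 12.03 in WT livers, a log2 difference of -0.19 (SE 0.247, interval -0.80 to 0.43, adjusted p = 0.658). KO replicate 1 was the lowest of the 6 livers. Cd5l, a secreted protein of tissue macrophages, read 12.27, 12.77 and 12.27 in KO livers and 12.62, 12.27 and 12.32 in WT livers. Its difference of 0.03 (SE 0.176) had an interval of -0.41 to 0.47 (adjusted p = 0.920).

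Timd4, a phosphatidylserine receptor for dying cells that marks embryo-derived Kupffer cells, stood at 10.13, 10.86 and 10.13 in KO livers and at 11.03, 10.28 and 10.28 in WT livers. The log2 difference was -0.16 (SE 0.299, interval -0.90 to 0.59, adjusted p = 0.760). A single liver of each genotype lay well above the other two, which were nearly equal to each other.

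Adgre1 encodes F4/80, the surface protein by which mouse macrophages are commonly recognised. It read 11.14, 11.71 and 11.19 in KO livers and 11.70, 11.20 and 11.14 in WT livers, with a difference of 0.00 (SE 0.219, interval -0.54 to 0.55, adjusted p = 0.996). Csf1r, the receptor on which Kupffer cell survival depends, stood at 11.70, 12.32 and 11.83 in KO livers and at 12.29, 11.72 and 11.69 in WT livers. Its difference was 0.05 (SE 0.234, interval -0.53 to 0.63, adjusted p = 0.909). RefSeq also lists a pseudogene, Csf1r-ps, and whether the probe set separates the pair was not analysed here.

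The C1q chains behaved alike. C1qa stood at 11.40, 12.11 and 11.55 in KO livers and at 11.87, 11.49 and 11.41 in WT livers. C1qb read 12.42, 12.78 and 12.62 in KO livers and 13.16, 12.52 and 12.42 in WT livers. C1qc read 12.21, 12.75 and 12.24 in KO livers and 12.72, 12.15 and 12.12 in WT livers. In all 3 genes KO replicate 2 and WT replicate 1 were highest within their genotype and the groups overlapped. The log2 differences were 0.09 for C1qa (interval -0.47 to 0.65), -0.09 for C1qb (interval -0.64 to 0.46) and 0.07 for C1qc (interval -0.49 to 0.63), with adjusted p from 0.815 to 0.859. Over the 9 genes other than Marco, the intervals reached from -0.90 to 0.65 at the widest. The adjusted threshold was a blunt one in this comparison, since Notch1 itself did not pass it at -3.10.

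Marco, a scavenger receptor that binds bacteria and particles, was the exception. It stood at 8.61, 8.51 and 6.89 in KO livers and at 7.15, 7.08 and 7.10 in WT livers. KO replicates 1 and 2 lay above every WT liver, and KO replicate 3 lay below all of them. Its SD was 0.96 in KO livers and 0.03 in WT livers (n = 3 each). The log2 difference of 0.89 (SE 0.472, interval -0.28 to 2.06) did not pass (adjusted p = 0.318). Left-out arrays moved it between 0.59 (without KO replicate 1) and 1.45 (without KO replicate 3). In KO replicate 3, which had the lowest Marco value of the livers, the mean of 11 hepatocyte markers was also the lowest of the 6, at 9.21. That mean was 10.40 and 12.38 in KO replicates 1 and 2, whose Marco values were close to each other, and 11.60 to 12.61 in WT livers. The part of hepatocyte content in the Marco values was not tested.

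**Figure D1:**
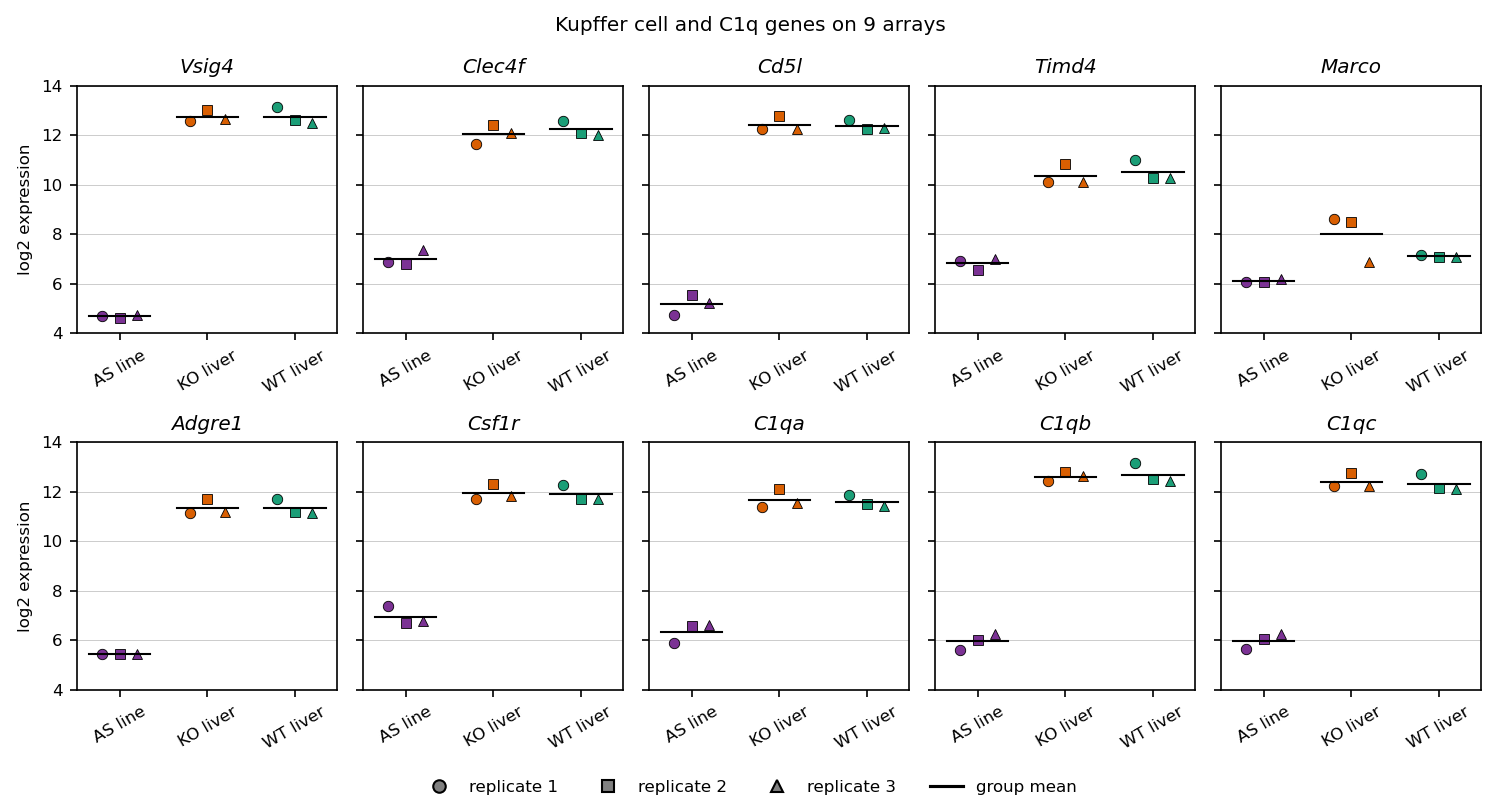
Log2 expression (vertical axis) of each of the 10 genes in AS cell lines, KO livers and WT livers, with 1 point per array, the marker giving the replicate number, and a line at the group mean. KO and WT livers overlap in every panel, Marco has the widest range among KO livers (8.61 and 8.51 against 6.89), and all AS cell lines lie below all livers.

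The spread among livers of one genotype was shared by the genes. In 9 of 10 genes, all but Marco, KO replicate 2 was the highest KO liver and WT replicate 1 the highest WT liver, an order seen in 12.4% of all genes. Averaged over the 3 C1q genes, KO replicates 1, 2 and 3 deviated from the KO mean by -0.22, 0.31 and -0.09, and WT replicates 1, 2 and 3 from the WT mean by 0.38, -0.15 and -0.22. For the 6 receptor and identity genes other than Marco the deviations were -0.24, 0.37 and -0.13 in KO livers and 0.37, -0.16 and -0.20 in WT livers. Both groups of genes thus moved by nearly the same amounts on each liver array, and this variation within a genotype was larger than the difference between genotypes. The order held in 11 of 14 other Kupffer cell genes and in 11 of 13 pan-macrophage genes, and in 0 of 11 endothelial, 0 of 11 hepatocyte and 0 of 8 T and NK cell markers. Other lists lay between, with 4 of 8 transcription factors, 6 of 15 scavenger and phagocytic receptors, 4 of 12 complement receptors and regulators, 3 of 10 central, alternative and terminal complement genes, 3 of 12 niche signals, 2 of 8 monocyte and recruited macrophage genes and 1 of 11 classical and lectin complement genes.

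Markers of other cells moved differently in the same 2 livers. The mean of the 11 hepatocyte markers was 12.38 in KO replicate 2, the highest of the KO livers, and 11.60 in WT replicate 1, the lowest of the WT livers. The 8 T and NK cell markers averaged 6.79 in KO replicate 2, within the KO range of 6.72 to 6.99, and 6.54 in WT replicate 1, against 9.01 and 8.92 in the other WT livers. Their part in the spread of the Kupffer genes was not tested. Between KO and WT livers 0 markers of any other cell type passed the threshold in limma, with median log2 differences of -1.58 for hepatocyte, -1.49 for T and NK cell, -0.91 for B cell, -0.15 for dendritic cell, 0.17 for endothelial and 0.28 for neutrophil markers. The median of 7 proliferation genes was 1.91, with every KO liver above every WT liver in all 7 and 0 past the threshold. Over all genes, 30.3% did not overlap between KO and WT livers, counting both directions. With KO replicate 2 and WT replicate 1 left out, an alternative chosen after seeing the data, 4354 of all 19938 genes and 0 of the 10 passed the threshold. The median of the 10 was then 0.03. Leaving out only KO replicate 2 gave 1949 of 19938 genes and 0 of the 10, with a median of -0.14. Leaving out only WT replicate 1 gave 60 of 19938 genes and 0 of the 10, with a median of 0.18. At these shares of all genes, a count of 0 among only 10 does not set the 10 apart from the rest.

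**Figure D2:**
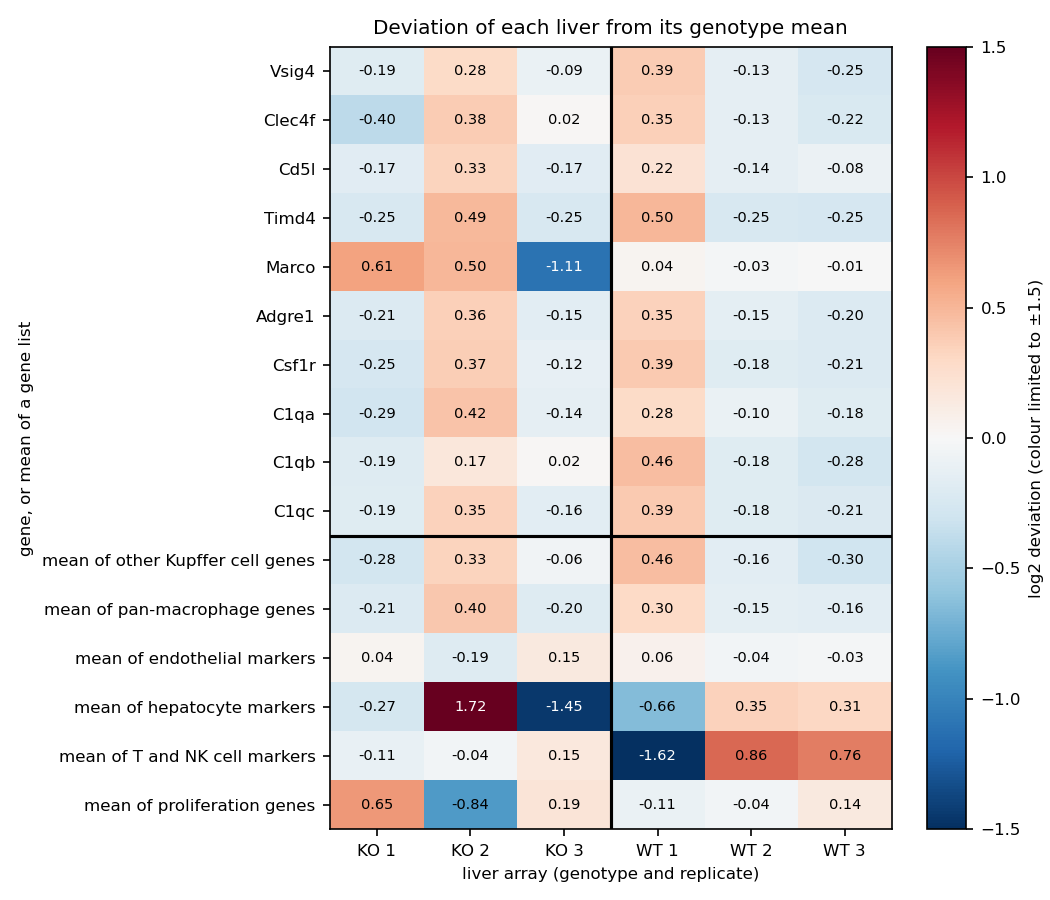
Log2 deviation of each liver array (columns) from the mean of its genotype, for the 10 genes (upper rows) and for the means of 6 gene lists (lower rows), with colour and number giving the value. KO replicate 2 and WT replicate 1 are raised for all 10 genes, Marco by only 0.04 in WT replicate 1. They are raised too for the other Kupffer and pan-macrophage lists. The hepatocyte mean is raised in KO replicate 2 (1.72) and lowered in WT replicate 1 (-0.66).

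Further genes of Kupffer cells and of complement were set beside the 10. Of the 14 measured genes of other Kupffer cell functions 0 passed the threshold between KO and WT livers, with a median of 0.07, and the greatest difference was that of the platelet-activating lectin receptor Clec1b at 0.45 (adjusted p = 0.335). Among 13 pan-macrophage genes 0 passed and the median was -0.07, with the lipopolysaccharide co-receptor Cd14 at -0.53 (adjusted p = 0.408) and the leukocyte phosphatase Ptprc at -0.48 (adjusted p = 0.220). Of 8 transcription factors of macrophage and Kupffer identity 0 passed. In Zeb2 and Maf, each with a difference of 0.44, all KO livers lay above all WT livers (adjusted p = 0.180 and 0.126). Groups without overlap, in either direction, were seen in 30.3% of all genes. Spi1, the gene for PU.1, differed by 0.26 (adjusted p = 0.670), and Rbpj, the gene for RBP-J, by -0.09 (adjusted p = 0.611).

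Scavenger and phagocytic receptors had a median of 0.17 with 0 of 15 past the threshold. For the genes without overlap named below, the share over all genes was 30.3%, counting both directions. The macrophage scavenger receptor Msr1 was at 10.38, 10.99 and 10.83 in KO livers and at 11.75, 11.45 and 11.22 in WT livers, so that every KO liver lay below every WT liver (difference -0.74, SE 0.209, adjusted p = 0.138). Scarb1, a lipoprotein receptor that hepatocytes and endothelium also express, lay above WT in all KO livers (difference 0.46, adjusted p = 0.102). Of 12 niche signals 0 passed. The growth factor Csf1, ligand of the Csf1r receptor, read 9.83, 10.13 and 10.32 in KO livers and 10.77, 10.52 and 10.62 in WT livers, without overlap (difference -0.54, SE 0.144, adjusted p = 0.129). The Notch ligand Jag1 differed by -0.72 (adjusted p = 0.114) and the sinusoidal growth factor Bmp10 by -0.47 (adjusted p = 0.376). Among 8 genes of monocytes and recruited macrophages 0 passed, with a median of -0.16, 5 differences negative and 3 positive. Plac8 read 8.76, 9.58 and 8.51 in KO livers and 9.33, 9.64 and 10.04 in WT livers. The integrin Itgax read 7.64, 7.82 and 7.50 in KO livers and 7.50, 8.51 and 8.54 in WT livers. The groups overlapped in both. The chemokine receptor Ccr2 was at 5.35 to 5.57 in KO livers and 5.45 to 6.34 in WT livers, below the array medians.

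Soluble complement genes other than C1q had lower medians. Classical and lectin pathway genes had a median of -0.66 with all 11 differences negative, and central, alternative and terminal complement genes a median of -0.95 with 8 of 10 negative. In limma 0 genes of either list passed the threshold, at a lowest adjusted p of 0.260. The count that separated the groups was 0, where 30.3% of all genes did so in either direction. C8g, a chain of the membrane attack complex, differed by -1.92 (SE 0.868, adjusted p = 0.260), C4bp, an inhibitor of the classical pathway, by -1.36 (SE 1.23, adjusted p = 0.518) and the mannose-binding lectin Mbl1 by -1.10 (SE 1.22, adjusted p = 0.596). The mean of the classical and lectin list was 8.53, 10.47 and 8.29 in KO replicates 1, 2 and 3 and 9.04, 10.07 and 10.23 in WT replicates 1, 2 and 3, when hepatocyte markers averaged 10.40, 12.38 and 9.21 in KO livers and 11.60, 12.61 and 12.57 in WT livers. The part of hepatocyte content in these medians was not tested. The 2 complement genes placed also among the Kupffer genes, Cfp (properdin) and C6 (a terminal complement component), differed by -0.16 (adjusted p = 0.753) and 0.07 (adjusted p = 0.900). Complement receptors and membrane regulators had a median of 0.00 with 0 of 12 past the threshold. Cd93, named early as a C1q receptor and expressed by endothelium, was above WT in all KO livers (difference 0.51, adjusted p = 0.125).

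In the AS cell lines all 10 genes fell against the KO livers, which carry the same Notch1 genotype. The comparison sets cultured cells against samples labelled liver. Lower calls were made for 10.1% of all genes, and 16.7% of all genes had every line below every KO liver, as was the case for all 10. The median log2 difference was -5.61, against 0.05 over all genes.

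Vsig4 stood at 4.72, 4.63 and 4.76 in the AS cell lines and at 12.57, 13.04 and 12.66 in KO livers. The log2 difference of -8.06 (SE 0.140, adjusted p = 2.2e-05) rests on line values that may be background, so it may understate the fall. The lines were close to each other and far below the array medians. Cd5l was at 4.74, 5.54 and 5.25 in the lines, a difference of -7.26 (SE 0.253, adjusted p = 9.59e-05). Clec4f was at 6.87, 6.82 and 7.37 in the lines, a difference of -5.05 (SE 0.252, adjusted p = 0.000259).

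Adgre1 read 5.46 in each of the 3 lines, with an SD of 0.00222, and differed by -5.89 (SE 0.166, adjusted p = 5.51e-05). Csf1r stood at 7.39, 6.71 and 6.77 in the lines, a difference of -4.99 (SE 0.255, adjusted p = 0.000276). Csf1, the ligand of Csf1r, was not lower: the lines read 11.08, 10.39 and 10.70 and KO livers 9.83, 10.13 and 10.32, a difference of 0.63 (SE 0.218, adjusted p = 0.105).

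C1qa stood at 5.88, 6.57 and 6.60 in the lines (difference -5.33, SE 0.280), C1qb at 5.60, 6.02 and 6.26 (difference -6.64, SE 0.198) and C1qc at 5.63, 6.05 and 6.25 (difference -6.43, SE 0.224). The adjusted p-values were 0.000301, 6.2e-05 and 9.68e-05. AS cell line 1 was the lowest of the lines for all 3 chains. Timd4, at 6.93, 6.55 and 7.01 in the lines, differed by -3.54 (SE 0.250, adjusted p = 0.000790).

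Marco was low in the lines too. They read 6.06, 6.09 and 6.20 and KO livers 8.61, 8.51 and 6.89, so the groups separated by only 0.69 at their nearest values. The difference of -1.89 (SE 0.484) passed at an adjusted p of 0.0472, and the call was lost without any single line, without KO replicate 1 or 2, with array weights and with the replicate block (adjusted p from 0.0784 to 0.146). It held without KO replicate 3 (difference -2.44, adjusted p = 0.00126), and Marco was not tested where dim genes were left out. For the other 9 genes the call held under all alternatives run.

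Against WT livers the same lines gave 10 of 10 genes lower, where 11.1% of all genes were called lower and 19.5% had every line below every WT liver. The log2 differences of Vsig4, Cd5l, Clec4f and Timd4 were -8.06, -7.23, -5.23 and -3.70, and those of Adgre1 and Csf1r -5.89 and -4.94. The chains C1qa, C1qb and C1qc differed by -5.24, -6.73 and -6.35. Marco differed by -0.997 (SE 0.0801, adjusted p = 0.000668), with lines at 6.06, 6.09 and 6.20 and WT livers at 7.15, 7.08 and 7.10. The lines lie below the array medians, and the Marco call was lost when all 9 arrays shared one fit (adjusted p = 0.0991). The lines enter both comparisons, so these values are no second test of those against KO livers.

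**Figure D3:**
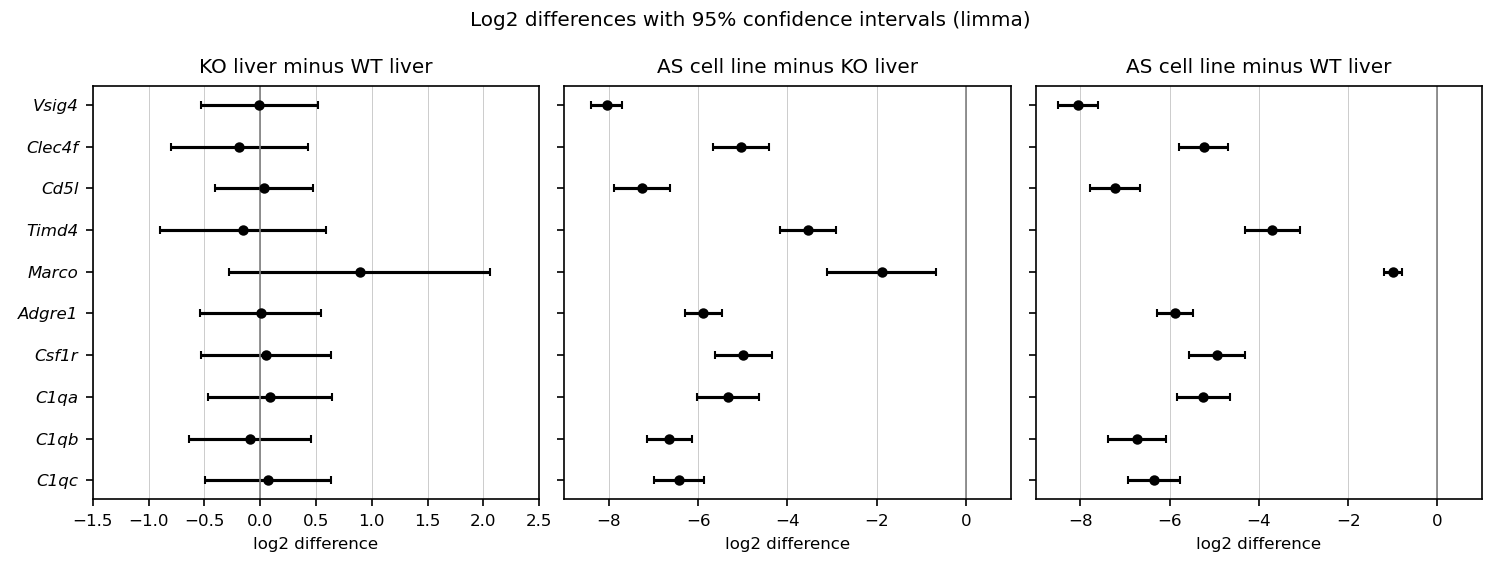
Log2 differences of the 10 genes (points) with 95% confidence intervals from limma (bars) for KO minus WT livers, AS cell lines minus KO livers and AS cell lines minus WT livers; the horizontal scale of the first panel is finer. All intervals of the first panel include 0, and in the other panels the differences run from -8.06 (Vsig4) to -0.997 (Marco against WT livers).

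Other macrophage genes were lower in the lines than in KO livers as well. Over all genes, 10.1% were called lower in this comparison. Of 13 pan-macrophage genes all 13 fell against KO livers, with a median of -4.19. Lyz2, the macrophage lysozyme, differed by -7.08 (SE 0.226), the Fc receptor chain Fcer1g by -6.27 (SE 0.199) and the signalling adaptor Tyrobp by -5.84 (SE 0.225). Levels in the lines differed widely within this list. Lyz2 read 5.24, 5.77 and 5.48 in the lines, whereas Lgmn read 9.97, 11.21 and 10.49 and Cd14 read 9.19, 9.74 and 9.03. Of 14 other Kupffer cell genes 13 fell, with a median of -3.34, among them Clec1b by -5.73, the folate receptor Folr2 by -5.20 and Cfp by -4.71. The exception was Pcolce2, a collagen-processing enhancer also made by mesenchymal cells, at 9.93, 7.18 and 9.05 in the lines and 9.20, 10.05 and 9.17 in KO livers (adjusted p = 0.550). Of 15 scavenger and phagocytic receptors 9 fell, with a median of -2.78. Mrc1, the mannose receptor, differed by -7.56, the inhibitory Fc receptor Fcgr2b by -6.78 and the clearance receptor kinase Mertk by -6.11. Mrc1 and Fcgr2b are expressed by sinusoidal endothelium too, and the 11 endothelial markers fell in the same comparison, so those cell types cannot be told apart here.

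Among the transcription factors 6 of 8 fell, with Spi1 at -5.35 (SE 0.306), the macrophage factor Irf8 at -5.14 (SE 0.107) and Spic, a factor of red-pulp and liver macrophages, at -4.46 (SE 0.260). The other two, Id3 and Rbpj, differed by -0.74 (adjusted p = 0.541) and 0.87 (adjusted p = 0.195). Of the niche signals 7 of 12 fell and 1 rose, where 10.1% of all genes were called lower and 11.4% higher. The Notch ligand Dll4 fell by 3.67 on the log2 scale (SE 0.265, adjusted p = 0.000853) and the cytokine receptor chain Csf2rb fell by 3.63 (SE 0.323, adjusted p = 0.00173). Jag1 rose, to 10.20, 10.57 and 11.00 in the lines, against 7.56, 7.29 and 7.85 in KO livers (difference 3.02, SE 0.249, adjusted p = 0.00134). Monocyte and recruited macrophage genes had a median of -0.23, with 3 of 8 lower: the integrin Itgax (-1.64), the lipid receptor Trem2 (-1.11) and Ccr2 (-0.76). For Ccr2 both the lines (4.64 to 4.70) and the KO livers (5.35 to 5.57) lay below the array medians, so its difference may be one between background values.

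The complement lists were mixed. Of 11 classical and lectin genes 2 fell, the macrophage ficolin Fcna by -4.23 (SE 0.172, adjusted p = 0.000143) and the C1 inhibitor Serping1 by -3.45 (SE 0.645, adjusted p = 0.0181). Of 10 central, alternative and terminal genes 2 fell, Cfp and C6 (-4.63, SE 0.270, adjusted p = 0.000437), the same 2 that stand among the Kupffer genes. Of 12 complement receptors and regulators 8 fell, with Cd93 at -7.22, the decay-accelerating factor Cd55 at -5.50 and the anaphylatoxin receptor C3ar1 at -4.61. Against WT livers the counts of lower genes were 6 of 11, 5 of 10 and 8 of 12 for these lists. Albumin (Alb), 1 of the 11 hepatocyte markers measured, read 12.31, 13.67 and 12.82 in the lines and 13.52, 13.86 and 12.14 in KO livers (adjusted p = 0.819). Of the 11 markers, 10 were lower in the lines than in KO livers, Alb among them, with a median of -2.53 and 3 past the threshold. The exception was Ttr, at 12.42, 12.91 and 12.49 in the lines and 12.02, 13.41 and 10.48 in KO livers. Against WT livers all 11 were lower, with a median of -4.35 and 6 past the threshold. Lower calls were made for 10.1% and 11.1% of all genes in these comparisons.

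**Figure D4:**
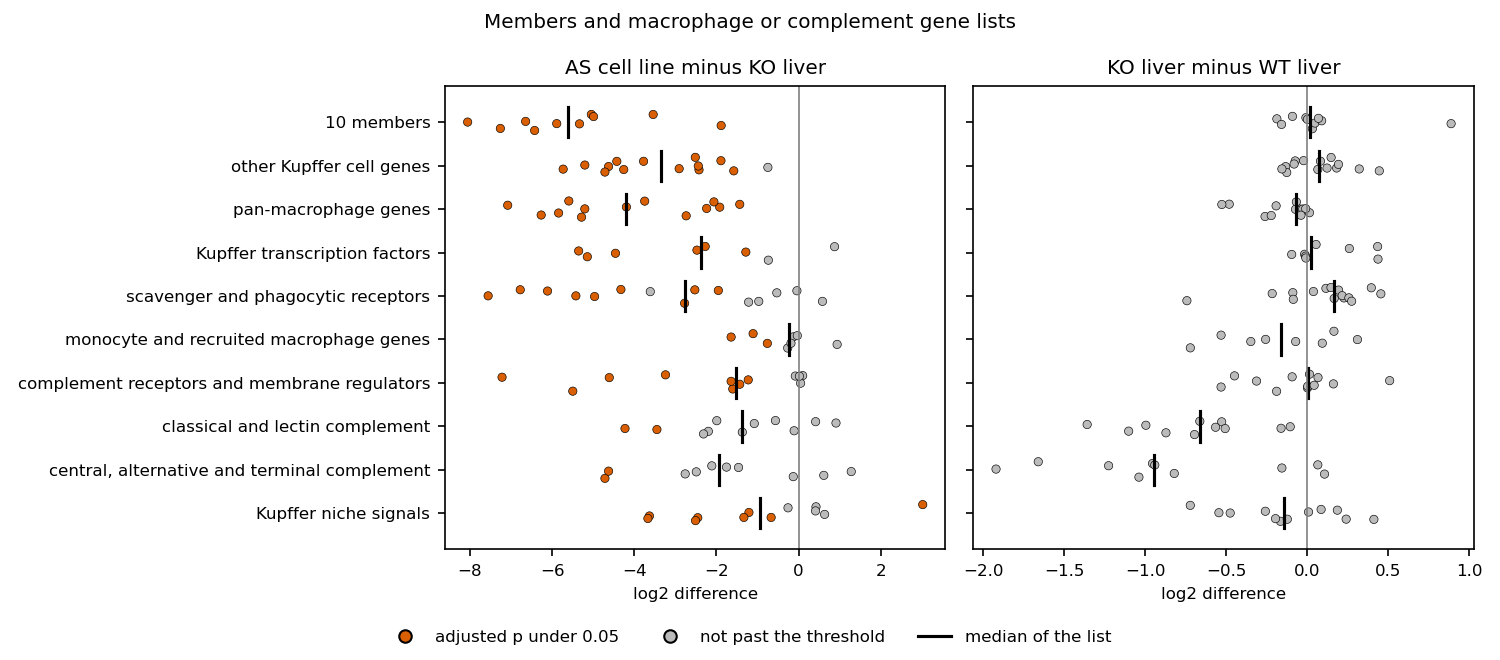
Log2 differences of single genes (points, orange where the adjusted p is under 0.05) with the median of each list (bars), for AS cell lines minus KO livers on the left and KO minus WT livers on the right, on different horizontal scales. The 10 genes and the other Kupffer and pan-macrophage lists lie well below 0 on the left, and on the right no gene passes the threshold while the soluble complement lists have medians of -0.66 and -0.95.

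The genes with the most similar profile over the 9 arrays were found by the mean absolute log2 difference between profiles centred on their own mean, among 17123 other named genes. For the mean profile of the 3 C1q genes they were Tyrobp (0.145), Mertk (0.154), Rgs1 (0.161), Ly86 (0.173) and Arhgdib (0.187). For the mean profile of the 7 other genes they were Folr2 (0.101), Lcp2 (0.113), Ms4a6c (0.163), Mpeg1 (0.165) and Fcgr4 (0.171). Of the 7 genes outside C1q, Adgre1 lay closest to the C1q profile (0.131) and Marco farthest from it (2.08). The gap between lines and livers dominates this measure, which is a description over arrays that were normalized together.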

How the data were processed

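The authors deposited 1 log2 value for each probe set and array, made by RMA with the oligo package, per the submitters' processing notes. Their software versions were not found in the labels. Total RNA was labelled with a whole-transcript kit, per the labels' protocols, which name PHH, an unexplained abbreviation, as its source. Of 35556 probe sets, 21789 had 1 gene in the platform annotation. The brightest probe set per gene over all arrays left 19938 genes. Every comparison used its own 6 arrays in limma 3.58.1 under R 4.3.3 (lmFit and eBayes, 2-sided, 3 arrays against 3, Benjamini-Hochberg over all genes); every adjusted p and interval comes from these fits. The procedure was run on simulated data for KO against WT livers, lines against KO livers and lines against WT livers. Of 100 genes changed by 1 log2 unit it recovered 61, 56 and 37 in that order. Of 100 changed by 2 it recovered 93, 69 and 80, and false calls numbered 9, 7 and 5. Noise was drawn independently for each gene, so shifts shared by many genes of an array were not simulated. The recovery rates thus need not hold for these arrays, where 0 of 19938 genes passed between KO and WT livers. The labels call the arrays of a group biological replicates and give no animal or line numbers. The p-values thus set a group difference against the spread between these samples only. If the 3 cultures are 1 line, that spread is one between cultures. Samples with the same replicate number were not treated as pairs. Over all genes, deviations from the group mean were correlated between same-numbered samples. These correlations ran from -0.39 to 0.43 for KO and WT livers. They were 0.24, 0.34 and 0.07 for lines and KO livers, and 0.04, 0.17 and -0.16 for lines and WT livers.

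The 10 genes and the 16 further lists (156 of 170 entries measured) were chosen with earlier results of these data known. From each list the text names mainly the up to 3 genes of greatest absolute difference per comparison. Rbpj, Csf1 and Cfp or C6 beyond that were named after their values were seen. The same holds for Alb, Ttr, Id3, Pcolce2 and Lgmn, and for Cd14 in the lines.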

Additional observations from a re-analysis of the deposited data

How the results depend on the processing

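Under every alternative run, 0 of the 10 genes passed between KO and WT livers, and 9 or 10 were lower in AS cell lines than in either liver group. In most alternatives 0 of all genes passed between KO and WT livers, so the count of 0 among the 10 was fixed there. Signs of the small KO minus WT differences did change. The 75th percentile scaling shifts all genes of an array by the same amount, and it moved the median of all genes to -0.16. With it the log2 difference was -0.13 for Cd5l, -0.16 for Adgre1, -0.11 for Csf1r, -0.0684 for C1qa and -0.0884 for C1qc. Repeated quantile normalization gave 0.0209 for Vsig4 and -0.0381 for Adgre1, and array weights 0.0239 for Vsig4 and 0.0089 for C1qb. Without both livers of lowest weight, an alternative chosen after seeing the data, Vsig4 was at 0.0451, Cd5l at -0.0253, Adgre1 at -0.0026 and C1qb at 0.0538. Leaving out 1 liver at a time gave -0.15 to 0.19 for Vsig4, -0.38 to 0.0124 for Clec4f, -0.13 to 0.14 for Cd5l, -0.40 to 0.092 for Timd4, -0.18 to 0.18 for Adgre1, -0.14 to 0.24 for Csf1r, -0.12 to 0.23 for C1qa, -0.23 to 0.14 for C1qb and -0.10 to 0.27 for C1qc. The cause of the changes under alternatives other than that scaling was not tested.

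The main fits did not pair samples by replicate number. With the replicate block, 0 of 10 genes passed between KO and WT livers, where 0 of all genes did. Of the 10, 9 passed between lines and KO livers and 10 between lines and WT livers. The counts over all 19938 genes moved between alternatives. Between KO and WT livers 0 genes passed, against 5744 with array weights, 2 with all 9 arrays in one fit, 4354 without both livers of lowest weight, 1949 without KO replicate 2 and 60 without WT replicate 1. Between lines and KO livers 4275 passed, against 2281 without KO replicate 1 and 2310 without KO replicate 3. Between lines and WT livers 5715 passed, against 3397 without WT replicate 2 and 3556 without WT replicate 3.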
